A study of Mus musculus with 8 samples.

Results

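The 10 genes described here encode collagen chains, other matrix proteins and filament proteins of the hepatic stellate cell, and they were taken by symbol from a list drawn up with earlier results of these data known. They are Col1a1, Col1a2, Col3a1, Col4a1 and Col4a2, the matrix genes Dcn, Lum and Timp1, and the cytoskeletal genes Acta2 and Des. All 10 were listed in both assays, among 24535 gene symbols in RNA-seq and 25033 in Ribo-seq. Col1a1, Col1a2 and Col3a1 encode chains of fibril-forming collagens, while Col4a1 and Col4a2 encode chains of the network-forming collagen of basement membranes.

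Liver was taken from male C57BL/6 mice given a diet with 45% of its energy from fat from 8 weeks of age (HF group), or that same diet plus betaine, a methyl donor, at 2% w/v in the water they drank (HB group). Each group had 6 mice aged 25 weeks at collection, and each assay had 2 libraries per group (HF1, HF2, HB1 and HB2). RNA-seq counted polyadenylated mRNA, and Ribo-seq counted ribosome-protected fragments (RPFs, footprints), the stretches of mRNA covered by a ribosome. The study's methods name 2 mice per group for sequencing while the labels speak of pooled preparations, so the replicates are libraries and the p-values measure only the spread between libraries. Every value is in RPKM, reads scaled by the length of the gene and the total of the library, and can therefore be compared between genes.

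Hepatic stellate cells store vitamin A in healthy liver and surround the sinusoids. On injury they become contractile myofibroblasts that secrete fibril-forming collagens, proteoglycans and protease inhibitors, and the balance of this deposition with its breakdown decides the amount of scar. Portal fibroblasts, vascular smooth muscle and endothelial cells also make some of these products. In whole liver, fewer cells of a type and less RNA per cell cannot be told apart.

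The libraries differed in depth. The RNA-seq totals, worked out from the spacing of the lowest RPKM values, lay between 11661207 and 22543471 reads. The Ribo-seq totals were 387980 reads in HF1, 1056546 in HF2, 257086 in HB1 and 141890 in HB2. The 10 genes together held 10048 reads in RNA-seq and 609 in Ribo-seq. Footprints of these genes thus rested on 498 reads in the HF group and 111 in the HB group. The labelled tissue carried its defining transcripts, since 13 of 13 hepatocyte markers passed the filter on low values. Of 22 stellate cell markers, 21 were above 0 in every RNA-seq library but 7 in every Ribo-seq library.

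In mRNA, none of the 10 genes met both thresholds, a log2 fold change above 1 in size together with p under 0.001 before adjustment. Decorin mRNA had the smallest p, at 22.2 ± 0.357 RPKM in HF and 44.2 ± 19.3 RPKM in HB (mean ± SD, n = 2). As a ratio of group means this was 1.995, beside 2.12 for Col1a1 and 2.08 for Acta2, which both have far lower levels. All of these HB means average unlike libraries. HB2 was 2.22 times HB1 for Col1a1 and 2.57 times for Acta2, and 0.529 of HB1 for Dcn. The 4 tested collagen chains of the set, Col1a2, Col3a1, Col4a1 and Col4a2, had log2 fold changes between -0.21 and -0.01. In footprints and in translation efficiency none was called either, at a depth that left several genes with 1 or 2 reads, or none, in HB2.

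**Figure D1:**
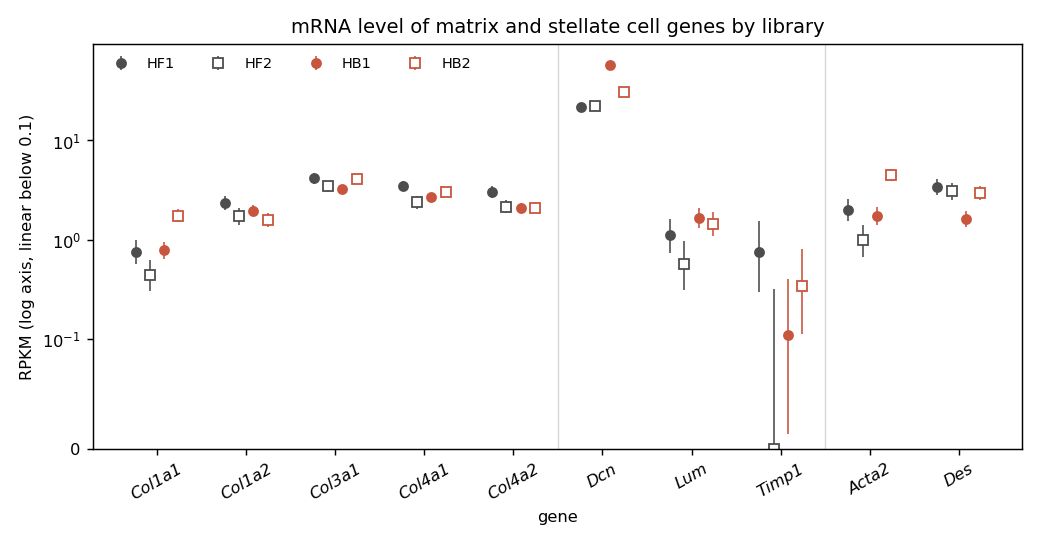
mRNA level (RPKM, log axis that is linear below 0.1) of the 10 genes in each RNA-seq library, with HF1 and HF2 in grey and HB1 and HB2 in red, and bars that give the exact Poisson 95% interval from the reads or, at 0, reach up to the level of 3 reads. Dcn lay between 21.9 and 57.8 RPKM, and every other gene stayed under 5 RPKM in all libraries.

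Among the fibril-forming chains, Col1a1 encodes the alpha-1 chain of type I collagen, the main protein of scar (chr11:94936224-94953042 on GRCm38, plus strand). Its mRNA measured 0.752 RPKM in HF1, 0.442 in HF2, 0.785 in HB1 and 1.74 in HB2, from 52, 31, 105 and 187 reads. Both HB libraries were above both HF libraries, but HB1 exceeded HF1 by little and HB2 stood apart. The gene did not pass the filter of a mean of 1 RPKM, and without a filter its log2 fold change was 0.48 with an adjusted p of 0.278 (limma).

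Col1a2, the gene for the partner alpha-2 chain (chr6:4504814-4541544, plus strand), measured 2.35 RPKM in HF1, 1.72 in HF2, 1.96 in HB1 and 1.59 in HB2. HB1 lay between the HF libraries and HB2 below both. Its log2 fold change was -0.12 (SE 0.24, 95% interval -0.67 to 0.42, limma adjusted p = 0.733). Type I collagen is built from alpha-1 and alpha-2 chains, and the ratio of Col1a1 to Col1a2 mRNA was 0.320 in HF1, 0.258 in HF2, 0.400 in HB1 and 1.10 in HB2. Only in HB2 was the alpha-1 message as abundant per length as the alpha-2 message.

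Col3a1 encodes type III collagen, which forms the reticular fibres of liver (chr1:45311538-45349706, plus strand). Its mRNA measured 4.15 RPKM in HF1, 3.45 in HF2, 3.25 in HB1 and 4.05 in HB2, and the groups overlapped, with a log2 fold change of -0.05 (SE 0.25, 95% interval -0.61 to 0.51, adjusted p = 0.906 by limma). It was the collagen chain with the highest mRNA level of the 5 in each library. Its ratio to Col1a2 mRNA ranged from 1.66 in HB1 to 2.55 in HB2.

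The basement membrane chains Col4a1 (chr8:11198423-11312826, minus strand) and Col4a2 (chr8:11312805-11449287, plus strand) form a heterotrimer and are transcribed away from each other from a shared promoter. Their annotated start sites lie 21 bases apart, at 11312826 and 11312805, so that the first exons overlap on opposite strands. The windows from 250 bases before to 50 bases after each start, from the RefSeq annotation of GRCm38.p6, are shown because these 2 genes read the same DNA in opposite directions. Capitals mark the 78 bases, chr8:11312777-11312854, that both windows hold, read 5′ to 3′ on each gene's own strand. The Col4a1 window is chr8:11312777-11313076 on the minus strand and the Col4a2 window is chr8:11312555-11312854 on the plus strand.
Col4a1: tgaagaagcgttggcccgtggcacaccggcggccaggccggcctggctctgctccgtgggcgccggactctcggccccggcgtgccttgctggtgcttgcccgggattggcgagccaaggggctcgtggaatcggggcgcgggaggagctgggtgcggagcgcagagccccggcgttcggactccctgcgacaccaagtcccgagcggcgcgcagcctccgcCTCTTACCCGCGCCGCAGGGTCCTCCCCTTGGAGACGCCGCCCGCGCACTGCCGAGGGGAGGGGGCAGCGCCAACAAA
Col4a2: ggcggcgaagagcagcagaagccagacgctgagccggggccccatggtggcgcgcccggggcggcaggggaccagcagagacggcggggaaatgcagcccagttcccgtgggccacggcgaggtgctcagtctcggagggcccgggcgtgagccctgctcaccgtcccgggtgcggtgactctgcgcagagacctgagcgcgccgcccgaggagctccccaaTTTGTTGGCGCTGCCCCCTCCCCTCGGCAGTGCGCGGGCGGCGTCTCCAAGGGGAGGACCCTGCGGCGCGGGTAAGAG
The windows had a GC content of 74% and 73.7%, against a median of 52.7% over the 32851 promoter windows of the mouse table. The letters GGGCGG (GC box), searched on both strands, occurred 1 time in the Col4a1 window and 3 times in the Col4a2 window, and 35.7% of all windows held them. CCAAT occurred 1 time in each window and in 37.4% of all windows. TATAA was in neither window and in 24.9% of all windows.

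Col4a1 mRNA measured 3.46 RPKM in HF1, 2.38 in HF2, 2.69 in HB1 and 3.001 in HB2. Col4a2 mRNA measured 3.03, 2.15, 2.08 and 2.09 RPKM in the same order. For Col4a1 the HB libraries lay inside the HF range, and for Col4a2 they lay just below HF2. The log2 fold changes were -0.01 for Col4a1 (SE 0.25, 95% interval -0.58 to 0.55, limma adjusted p = 0.972) and -0.21 for Col4a2 (SE 0.25, 95% interval -0.76 to 0.35, limma adjusted p = 0.558). The ratio of Col4a1 to Col4a2 mRNA was 1.14 in HF1, 1.11 in HF2, 1.29 in HB1 and 1.44 in HB2. Whether reads were counted by strand is not given in the sources used here, so reads of the overlapping first exons may be assigned to either gene.

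Of the other genes with a promoter window in the RefSeq table, Col1a2 held GGGCGG 2 times and CCAAT 2 times. Des held GGGCGG 2 times, and Timp1 held GGGCGG and CCAAT 1 time each. TATAA was found in the windows of Col3a1 (2 times, overlapping or side by side) and Acta2 (1 time, after the start).

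Dcn and Lum encode decorin and lumican, small leucine-rich proteoglycans that bind collagen fibrils and limit their width. They are neighbours on chromosome 10 (chr10:97479609-97518143 and chr10:97565128-97572703, both on the plus strand). Dcn mRNA measured 21.9 RPKM in HF1, 22.4 in HF2, 57.8 in HB1 and 30.6 in HB2, from 482, 500, 2460 and 1043 reads. Both HB libraries were above both HF libraries, the HF libraries were close together, and HB1 was far above HB2. The log2 fold change was 0.90 (SE 0.32, 95% interval 0.19 to 1.601), with an unadjusted p of 0.0179 and an adjusted p of 0.0603 by limma. Dcn was not called, and without HB2 it would have been, at a log2 fold change of 1.35 and an unadjusted limma p of 0.000222. Without HB1 the log2 fold change was 0.45 with an unadjusted p of 0.0966 (limma).

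Lum mRNA measured 1.12 RPKM in HF1, 0.571 in HF2, 1.67 in HB1 and 1.44 in HB2, from 27, 14, 78 and 54 reads. The HB libraries were again both above the HF libraries. Its log2 fold change was 0.48 (SE 0.25, 95% interval -0.06 to 1.03, limma adjusted p = 0.168). Lum passed the filter of a mean of 1 RPKM only through HB, with means of 0.843 RPKM in HF and 1.55 in HB. A gene that low in HF could pass only by being higher in HB, so this value is no support for a rise. Decorin mRNA was 19.6 to 39.3 times as abundant per length as lumican mRNA, and the lowest and the highest of these ratios were both in HF. Kera and Epyc, the proteoglycan genes of the same cluster, were listed at 0 in all RNA-seq libraries.

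Timp1 encodes a secreted inhibitor of matrix metalloproteinases (chrX:20870166-20874735, plus strand, inside Syn1 on the other strand). Its mRNA measured 0.741 RPKM in HF1, 0 in HF2, 0.110 in HB1 and 0.341 in HB2, from 7, 0, 2 and 5 reads. The groups overlapped, and the count of 0 in HF2 allows a level of up to 0.314 RPKM (3 reads). The gene did not pass the filter and was near the limit of detection in both groups.

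Acta2 encodes the smooth muscle actin of myofibroblasts and vessel walls (chr19:34241090-34255590, minus strand). Its mRNA measured 2.00 RPKM in HF1, 0.986 in HF2, 1.74 in HB1 and 4.47 in HB2, from 60, 30, 101 and 208 reads. HB1 lay between the HF libraries and HB2 stood above all of them. HB over HF gave a log2 fold change of 0.67 (SE 0.35, 95% interval -0.12 to 1.45, limma adjusted p = 0.182). It was 0.17 without HB2 (unadjusted p = 0.624, limma) and 1.16 without HB1 (unadjusted p = 0.00468, limma). The coding sequence is nearly the same in other actin genes, and how the authors assigned reads that match several genes is not given in the sources used here.

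Des encodes desmin, the intermediate filament of muscle and of rodent stellate cells (chr1:75360329-75368579, plus strand). Its mRNA measured 3.41 RPKM in HF1, 3.06 in HF2, 1.62 in HB1 and 2.96 in HB2. Both HB libraries were below both HF libraries, HB2 only slightly. HB over HF gave a log2 fold change of -0.39 (SE 0.27, 95% interval -1.004 to 0.22, limma adjusted p = 0.302). The ratio of desmin to smooth muscle actin mRNA was 1.71 in HF1, 3.11 in HF2, 0.931 in HB1 and 0.662 in HB2, so that the order of these 2 filament genes differed between the groups in these libraries.

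Counted over the set, 8 of the 10 genes passed the filter and 0 of these 8 were called higher or lower in HB mRNA by limma, where 2.30% of all 10687 tested genes were called higher and 6.56% lower. At an unadjusted p under 0.05 the count was 1, Dcn, where 40.5% of all tested genes passed, and limma voom on the recovered reads also called 0. Both HB libraries lay above both HF libraries for 3 of the 10 genes (Col1a1, Dcn and Lum) and below for 2 (Col4a2 and Des). Over all tested genes 24.8% had their HB libraries above and 43.3% below. The median log2 fold change of the 10 genes was -0.03, and that of all tested genes was -0.19. Shifting the libraries to a common median moved the median of all genes to 0.08 and turned the sign of Col1a2, Col3a1, Col4a1 and Col4a2, while Dcn, Lum, Acta2 and Des kept theirs.

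**Figure D2:**
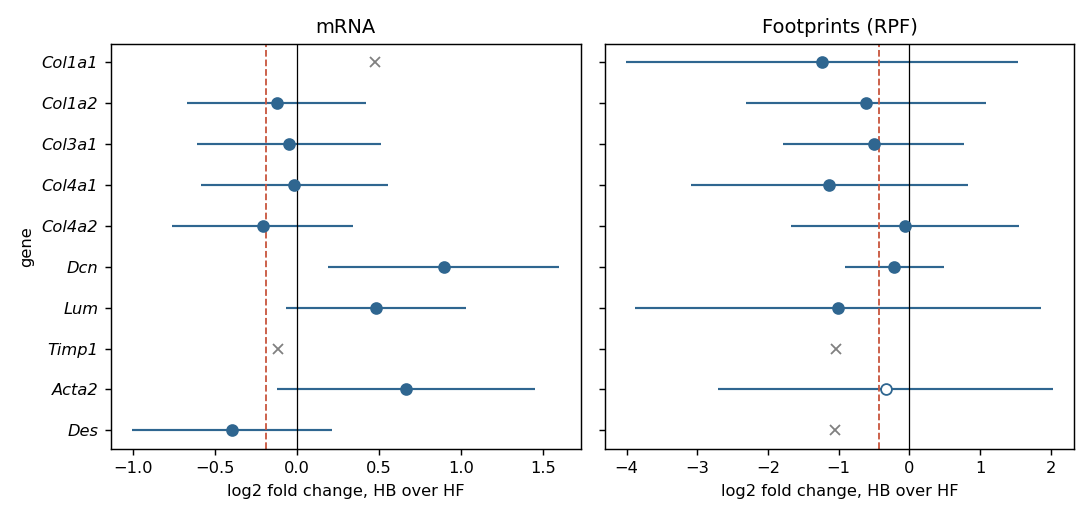
Log2 fold change of HB over HF for mRNA (left) and footprints (right), with limma 95% intervals for tested genes, an open circle for a footprint comparison under 10 reads, crosses for untested genes (value without filter) and a dashed line at the median of all tested genes. For mRNA the interval of Dcn, 0.19 to 1.601, is the only one that leaves out 0, and for footprints every interval includes 0.

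Libraries of the same group differed by more than counting error for several of the genes. Acta2 mRNA was 2.57 times as high in HB2 as in HB1 (exact binomial 95% interval 2.02 to 3.29), Col1a1 2.22 times (1.74 to 2.85) and Des 1.83 times (1.43 to 2.34). Dcn went the other way, at 0.529 of HB1 in HB2 (0.491 to 0.569). Thus HB1 was high in Dcn and HB2 in Acta2, Col1a1 and Des. In the same comparison Col1a2, the partner chain of Col1a1, was at 0.810 (0.655 to 0.999) and Lum at 0.863 (0.5985 to 1.24). Col3a1 was at 1.24 (1.08 to 1.43), Col4a1 at 1.12 (0.965 to 1.29) and Col4a2 at 1.004 (0.845 to 1.19). In the HF group, HF2 was lower than HF1 for 9 of the 10 genes, down to a ratio of 0.493 for Acta2 (0.307 to 0.777), among the genes with reads in both, while the interval included 1 for Dcn at 1.02 (0.901 to 1.16), Des at 0.897 (0.688 to 1.17) and Lum at 0.511 (0.248 to 1.01). These intervals cover counting error only.

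**Figure D3:**
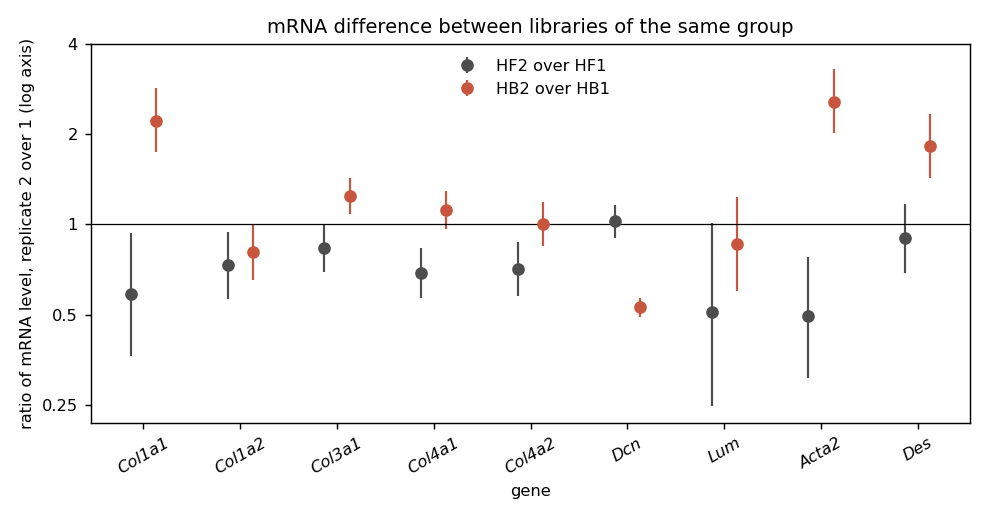
Ratio of the mRNA level in replicate 2 to that in replicate 1 of the same group (log axis), with exact binomial 95% intervals from the reads, for 9 genes (Timp1 is left out, at 0 in HF2). Acta2, Col1a1 and Des lie above 1.8 in HB, Dcn lies at 0.529 in HB, and the HF ratios lie between 0.493 and 1.02.

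Markers of cells that share these transcripts were followed in the same libraries. The 6 vascular smooth muscle markers (Myh11, Tagln, Cnn1, Actg2, Lmod1 and Synpo2) summed to 5.05 RPKM in HF1, 5.20 in HF2, 9.001 in HB1 and 15.3 in HB2, and 4 of the 6 were highest in HB2, the library with the most Acta2 mRNA. Without Tagln the other 5 summed to 1.64, 0.77, 0.834 and 3.73 RPKM, so that HB2 alone was high. Tagln, an actin-binding protein and the only tested gene of these 6, measured 3.41 and 4.43 RPKM in HF against 8.17 and 11.6 in HB (log2 fold change 1.14, limma adjusted p = 0.0162, above the unadjusted threshold for a call). Synpo2 was at 0 in both HF libraries, Actg2 in HF2 and Cnn1 in HB1. Of the 22 stellate cell markers, 8 were highest in HB1, the library with the most Dcn mRNA, 4 in HB2 and 10 in an HF library, and their summed level was 209.4 to 254.1 RPKM in HF and 184.7 to 204.8 in HB. Without Ecm1, the most abundant of them, it was 101.4 to 119.3 RPKM in HF and 109.2 to 113.6 in HB, so the HB libraries lay inside the HF range. The 15 portal fibroblast and mesothelial markers summed to 13.6 RPKM in HF1, 8.21 in HF2, 8.83 in HB1 and 16.0 in HB2. The part of these markers in the Acta2 and Dcn differences was not tested.

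Of the stellate cell markers 17 were tested in mRNA and 0 were called in either direction by limma, with 1 at an adjusted p under 0.05, where 27.0% of all tested genes passed. That gene was Hand2, a transcription factor of quiescent stellate cells, at 9.09 and 6.02 RPKM in HF and 3.69 and 3.39 in HB (log2 fold change -0.89, limma adjusted p = 0.0366). Lrat, the retinol-esterifying enzyme, measured 1.25 and 1.61 RPKM in HF and 4.62 and 1.44 in HB, so HB1 alone was high (limma adjusted p = 0.232). The platelet-derived growth factor receptor Pdgfrb measured 1.55 and 0.953 RPKM in HF and 0.934 and 1.08 in HB (limma adjusted p = 0.661). Reln, Colec11 and Cygb had log2 fold changes of -0.02, 0.38 and 0.06, with adjusted p-values of 0.958, 0.323 and 0.882 (limma).

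Footprints of the same genes rested on far fewer reads than mRNA. The gene length was recovered from the RPKM by a search that took no length below the coding length. For Col1a1, Col3a1, Col4a1 and Col4a2 it was that of an annotated transcript (5930 bp for Col1a1, of which 4359 bp are coding). For these collagen genes a footprint level is thus spread over untranslated sequence too, while for the others the search could not have shown otherwise. Of the 10 genes 7 had at least 10 footprint reads over the 4 libraries, the least for which the comparison was read.

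Dcn footprints measured 79.6 RPKM in HF1, 76.2 in HF2, 64.3 in HB1 and 69.9 in HB2, from 56, 146, 30 and 18 reads for a length of 1814 bp, which is inferred and scales these read numbers but not the RPKM. Both HB libraries were slightly below both HF libraries, the opposite order to decorin mRNA. The log2 fold change was -0.21 (SE 0.27, 95% interval -0.91 to 0.49, limma adjusted p = 0.782), and it turned positive, to 0.11, when libraries were shifted to a common median.

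Col3a1 footprints measured 16.2 RPKM in HF1, 9.87 in HF2, 9.79 in HB1 and 7.6 in HB2, from 35, 58, 14 and 6 reads. HB1 and HF2 were almost equal, and HF1 stood above the others. The log2 fold change was -0.51 (SE 0.49, 95% interval -1.78 to 0.77, limma adjusted p = 0.715). Col1a2 footprints measured 8.88, 5.07, 5.96 and 2.70 RPKM in the same library order, from 18, 28, 8 and 2 reads, and the groups overlapped. Col1a1 footprints measured 7.39, 2.71, 4.59 and 0 RPKM, from 17, 17, 7 and 0 reads, and overlapped as well. Here the 0 in HB2 allows a level of up to 3.57 RPKM (3 reads), which is above the level in HF2.

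Col4a1 footprints measured 7.79 RPKM in HF1, 5.44 in HF2, 4.70 in HB1 and 1.07 in HB2, the last from 1 read. Col4a2 footprints measured 7.19, 3.52, 4.22 and 5.46 RPKM, with 5 reads in HB2. So of this gene pair, Col4a1 had both HB libraries below both HF libraries and Col4a2 overlapped. Neither differed by the test, at a log2 fold change of -1.13 for Col4a1 (SE 0.76, 95% interval -3.09 to 0.83, limma adjusted p = 0.643) and -0.07 for Col4a2 (SE 0.62, 95% interval -1.68 to 1.55, limma adjusted p = 0.972).

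Lum footprints measured 6.21, 2.74, 5.62 and 0 RPKM in HF1, HF2, HB1 and HB2, from 5, 6, 3 and 0 reads. Acta2 had 9 footprint reads in all, Des 4 and Timp1 1, too few to compare. Des and Timp1 had none in HB, where 3 reads would be 3.81 and 6.90 RPKM of Des in HB1 and HB2, above the 1.68 and 0.618 RPKM of the HF libraries. No statement on the footprints of these 3 genes is possible at this depth.

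**Figure D4:**
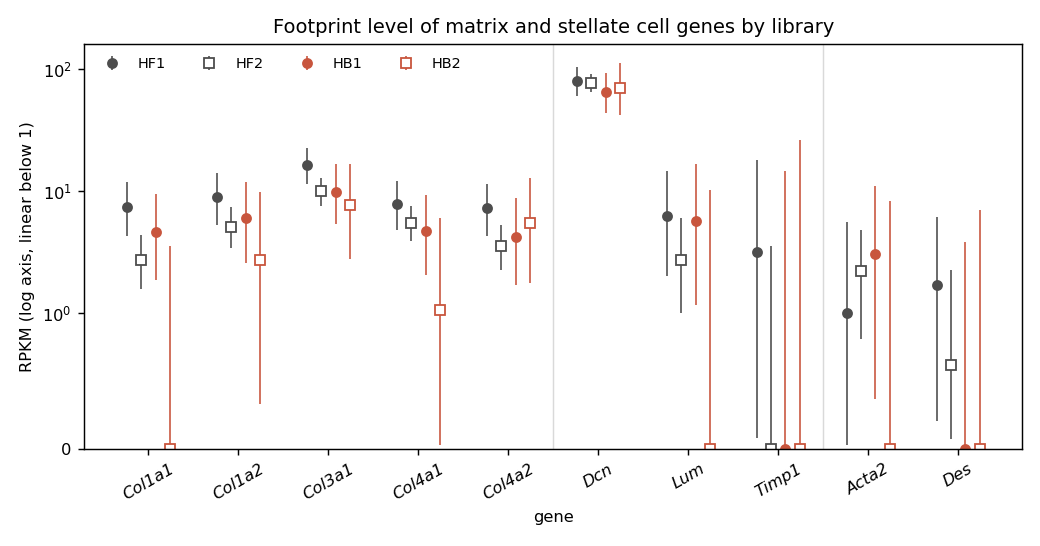
Footprint level (RPKM, log axis that is linear below 1) of the 10 genes in each Ribo-seq library, with exact Poisson 95% intervals from the reads (at 0, bars up to the level of 3 reads) and the groups coloured grey (HF) and red (HB). Dcn lies between 64.3 and 79.6 RPKM, and 5 genes are at 0 in HB2.

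Of the 8 genes tested in footprints 0 were called by limma, where 1.58% of 11190 tested genes were called higher and 7.86% lower (fold change above 1 in size on the log2 scale, p under 0.05 before adjustment). At an unadjusted p under 0.05 alone the count was also 0, where 10.0% of all tested genes passed, and voom on the recovered reads called 0. Scaling moved the split over all genes, from 177 higher and 879 lower to 349 and 421 at a common median and 42 and 2816 at a common sum. Both HB libraries lay below both HF libraries for 4 of the 10 genes (Col3a1, Col4a1, Dcn and Des), against 33.2% of all tested genes. They lay above for 0, against 9.07%. Des is in this count through 0 reads in HB, so its order is not determined at this depth. The log2 fold change was below 0 for all 10 genes, counting the 2 untested ones by their value without a filter, with a median of -0.81. For Acta2, Des and Timp1, with 9, 4 and 1 footprint reads, the sign is not determined. Over the 8 tested genes the median was -0.56, beside -0.43 over all tested genes. For Dcn and Col4a2 this sign changed at a common median, voom gave 0.08 for Col4a2 and 0.2 for Acta2, and without HB2 the values were 0.0027 for Col1a1, 0.35 for Lum and 0.67 for Acta2. Of the 22 stellate cell markers, 7 were at 0 in both HB Ribo-seq libraries, the shallowest of the 4. In footprints 18 of the 22 were tested, and 2 were called lower and 0 higher by limma, beside 7.86% and 1.58% of all tested genes. Their median log2 fold change was -1.26, and both HB libraries lay below both HF libraries for 13 of the 22, against 33.2%. A gene at 0 in both HB libraries could pass the filter only through HF, so these counts are no support for a fall. Without HB1, 3 genes would have been called lower, namely Lum, Col4a1 and Col1a1, which had 0, 1 and 0 reads in HB2, the one HB library left, in a fit that called 22.5% of all tested genes lower.

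Translation efficiency (TE), the footprint level divided by the mRNA level, placed most of the matrix genes above the median gene. In HF it was 8.46 for Col1a1, 5.31 for Lum, 3.52 for Dcn, 3.43 for Col1a2 and for Col3a1, 2.27 for Col4a1 and 2.07 for Col4a2, as ratios of group means. The median over 9455 genes was 1.06 in HF, and 9 of the 10 genes were above it, Timp1 from 1 footprint read. Desmin was the exception at 0.355, from 4 footprint reads. Smooth muscle actin was at 1.08, from 7 reads, with 0.501 in HF1 and 2.24 in HF2 on opposite sides of the median. At this depth neither of these 2 genes can be placed against the median.

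In HB the ratios were 1.82 for Col1a1, 1.81 for Lum, 1.52 for Dcn, 2.44 for Col1a2, 2.38 for Col3a1, 1.01 for Col4a1 and 2.32 for Col4a2, beside a median of 0.885. These HB ratios average unlike libraries, since HB1 and HB2 gave 5.85 and 0 for Col1a1, 3.37 and 0 for Lum, 1.75 and 0.355 for Col4a1, and 1.11 and 2.29 for Dcn. Here 7 of the 10 genes were above the median. For Timp1 and Des, at 0 in both HB libraries, and for Acta2, with 2 reads in HB, the side of the median is not determined. This count therefore cannot be set against that in HF. Decorin was at percentile 90.1 of TE in HF and 72.0 in HB. Lower percentiles in HB were not particular to it, with 98.5 and 78.6 for Col1a1, 95.9 and 78.5 for Lum, and 78.4 and 56.1 for Col4a1. Col1a2 and Col3a1 lay between percentiles 86.8 and 89.6 in both groups, and Col4a2 was at 75.4 in HF and 86.1 in HB. This is a description across genes of ratios with few footprint reads.

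The log2 fold change of TE, tested on ratios of libraries with the same number, was -1.11 for Dcn (SE 0.53, 95% interval -2.41 to 0.20, unadjusted p = 0.0829, adjusted p = 0.458, limma). It was -0.46 for Col3a1, -0.49 for Col1a2, -1.12 for Col4a1 and 0.14 for Col4a2. Lum, at -1.50, and Acta2, at -1.003, rested on 14 and 9 footprint reads. Of the 7 genes tested, limma called 0 (above 2 in size on the log2 scale, p under 0.05 before adjustment), against 1.62% of genes higher and 4.78% lower. At an unadjusted p under 0.05 alone the count was 0, where 12.4% of all tested genes passed. An interaction model over all 8 libraries needs no pairing by number. It called 0 of the 7 genes, while over all tested genes 153 were called higher and 415 lower. Dcn had an unadjusted p of 0.0498 there (limma), where 1498 of 9455 tested genes were under 0.05. Footprint and mRNA libraries with the same number did not deviate together, with a correlation across genes of -0.0024 in HF and -0.077 in HB. The median over all tested genes was -0.35.

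Other genes of the matrix pathway were counted from lists. Of 39 other collagen chains 10 were tested in mRNA and 2 were called lower, 0 higher, beside 6.56% of all tested genes called lower. Of the 10, 4 (Col5a1, Col6a3, Col11a2 and Col20a1) passed the filter only through HF, since their HB means were under 1 RPKM, and a gene that low in HB could pass only by being higher in HF. Both called chains were among them, so their calls are no support for a fall of the list. Col20a1, a fibril-associated chain, measured 2.99 and 2.50 RPKM in HF and 0.657 and 0.753 in HB, and Col11a2, a minor fibrillar chain, 2.01 and 1.88 RPKM in HF and 0.273 and 0.514 in HB. At an adjusted p under 0.05 (limma) 3 of the 10 were lower, beside 27.0% of all tested genes in either direction. The third was Col27a1, named after its values were seen, at 106.7 and 118.6 RPKM in HF and 17.1 and 49.4 in HB (log2 fold change -1.91, limma unadjusted p = 0.00107, adjusted p = 0.0116). Col27a1 footprints were far lower than this mRNA level, at 4.73 and 0.620 RPKM in HF and 0 and 0.923 in HB. Col5a2, the neighbour of Col3a1 and a chain of type V collagen, measured 0.557 and 0.345 RPKM in HF and 0.248 and 0.284 in HB and was not tested.

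Of 17 tested genes for collagen folding and crosslinking 0 were called, and at an adjusted p under 0.05 (limma) 2 were higher and 4 lower, where 27.0% of all tested genes passed in either direction. Of 25 tested proteoglycans and glycoproteins 1 was called lower, where 6.56% of all tested genes were called lower. That gene was Agrn (agrin, a basement membrane proteoglycan), at a log2 fold change of -1.34 (adjusted p = 0.0105, limma). In footprints Agrn had a log2 fold change of 0.01 (adjusted p = 0.997, limma). Of 14 tested proteases and inhibitors 1 was called lower, beside the same 6.56% of all tested genes. It was Mmp14, the membrane-bound metalloproteinase that cleaves fibrillar collagen. Mmp14 mRNA measured 45.8 and 29.0 RPKM in HF and 7.54 and 11.6 in HB (log2 fold change -1.85, limma adjusted p = 0.00577). Its footprints had a log2 fold change of -2.18 with an adjusted p of 0.536 (limma). Of 25 tested genes of stellate activation signalling 0 were called, with 1 higher and 1 lower at an adjusted p under 0.05 by limma.

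Of 12 tested contractile and filament genes 1 was called lower, where 6.56% of all tested genes were called lower. That gene was Mylk, the kinase of the myosin light chain, at 44.5 and 35.9 RPKM in HF and 13.1 and 10.8 in HB. Mylk had a log2 fold change of -1.67 in mRNA (limma adjusted p = 0.00526) and -0.58 in footprints (limma adjusted p = 0.653). The mRNA difference of Mylk was thus in the direction opposite to the values of Acta2 and Tagln. Among lists of other liver cells, 1 of the 17 tested endothelial markers was called lower, beside the same 6.56%. It was Stab1 (log2 fold change -1.52, limma adjusted p = 0.0104). Of the macrophage markers 1 of 13 was called higher, beside 2.30% of all tested genes, namely Lyz2 (log2 fold change 2.11, limma adjusted p = 0.00526). The footprint log2 fold changes of Stab1 and Lyz2 were -0.92 and -0.38, with adjusted p-values of 0.645 and 0.896 (limma). Of the 13 tested macrophage markers 5 were higher and 0 lower at an adjusted p under 0.05 (limma). Of the 17 tested endothelial markers 4 were lower and 0 higher. Over all tested genes 27.0% passed, counted in either direction. No portal fibroblast, cholangiocyte, lymphocyte or hepatocyte marker was called (4, 3, 1 and 13 tested by limma), and at an adjusted p under 0.05 the counts were 0, 0, 1 and 1.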

How the data were processed

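RNA-seq and Ribo-seq of liver had 2 libraries per group. Per the paper and the labels, the authors mapped reads to mm10 with FANSe2, used edgeR for their own comparison and deposited the RPKM of each gene and library. The labels give 25 weeks of diet, more than the time from 8 weeks of age to the collection in week 25 that the study's methods give. Groups came from the sample titles. The members and lists were chosen with earlier results of these data known.

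Genes with a mean of at least 1 RPKM in an assay were tested on log2(RPKM + 1) with limma 3.58.1 (R 4.3.3, eBayes with an intensity trend, two-sided), with Benjamini-Hochberg adjustment over all tested genes. An exact permutation test of 2 against 2 libraries cannot go below p = 0.333. Fold changes on this scale understate those of low genes. Whole reads were recovered for 98.8% of RNA-seq and 98.7% of Ribo-seq values above 0, within 0.02 of a read, and served for intervals, floors and the voom alternative, which called 172 genes higher and 769 lower in mRNA and 378 and 751 in footprints. Recovered reads summed to 99.2% to 107.9% of the totals. Symbols shared by 4 RNA-seq entries were left out. Steps were tested on simulated data.

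Named genes are the 10 members, up to 4 called genes of each other list by smallest p, 6 stellate cell markers (Lrat, Pdgfrb, Reln, Hand2, Colec11 and Cygb) and chromosomal neighbours. Tagln was named after its values were seen. Coordinates are from GENCODE M21 (GRCm38, the same as mm10), and promoter windows from RefSeq (GRCm38.p6), which held 7 of the 10 genes. Alternatives were another pseudocount, filter, scaling, trend, threshold, block, voom, an interaction model for TE, and leaving out each library.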

Additional observations from a re-analysis of the deposited data

How the results depend on the processing

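Tried in turn were no filter, a filter at a mean of 5 RPKM, a pseudocount of 0.1, a common median, a common sum, no variance trend, an adjusted p under 0.05, a replicate block, voom, an interaction model for TE and leaving out each library. The 0 mRNA calls among the members stayed 0 except without HB replicate 2, where 1 gene (Dcn, log2 fold change 1.35) and 4.67% of all genes were called higher, so that leaving out a library gave 0 to 1. Members called lower in footprints numbered 1 at a common sum (Dcn, log2 fold change -1.08; 24.2% of all genes were called lower), and 0 to 3 when a library was left out, with 1 (Timp1, from 1 read in HF1 against 0 in HB, where 5.96% of all genes were called lower) without HF replicate 2 and 3 without HB replicate 1 (Lum -2.38, Col4a1 -1.87 and Col1a1 -2.48 on the log2 scale, where 22.5% of all genes were called lower). TE calls were 0 to 2 when a library was left out, the 2 being lower calls without HB replicate 1 (Lum -2.80 and Acta2 -2.51, where 13.3% of all genes were called lower). With a library left out, the lone library of the group is assumed to vary like the others. The cause of these changes was not tested.

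Replicate numbers were shared by the groups but did not pair the libraries, with a correlation of deviations across genes of -0.10 between HF and HB in RNA-seq and -0.01 in Ribo-seq. With the replicate block 0 members were called, while over all genes 498 were higher and 1229 lower in mRNA against 246 and 701 without it. A crossed block, chosen after seeing these correlations, gave 474 and 1303 with 0 members called. A common median changed the split of mRNA calls over all genes to 540 higher and 291 lower, and a filter-free fit to 77 and 188. Depth limits the footprint comparison, since the members had 32 reads in HB2 and 79 in HB1, and over all genes 0 footprint calls had an adjusted p under 0.05 (limma), with 1122 at an unadjusted p under 0.05 and 51 higher and 48 lower by voom.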
